A study of Mus musculus with 12 samples.

Results

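The analysis describes 10 genes that make, modify and export the acylceramides of the skin barrier: Elovl4, Cyp4f39, Cers3, Pnpla1, Abhd5, Ugcg, Abca12, Alox12b, Aloxe3 and Sdr9c7. They were chosen by symbol, for their place in the pathway, and all 10 were found among the 18505 genes of the deposited expression table. In the differentiating layers of the epidermis, very long fatty acids are elongated, hydroxylated at their end and joined to a sphingoid base, and the resulting ceramide is esterified with linoleic acid to give an acylceramide. Acylceramides are glucosylated, loaded into lamellar granules and released between the corneocytes, where lipoxygenases oxidise the linoleic acid part and the lipid becomes bound to the cornified envelope. In humans or mice, loss of the gene causes ichthyosis or a leaky skin barrier for many of them.

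RNA-seq had been performed on the back skin of BALB/c WT mice, which the study describes as young males, collected on day 10, with 4 samples in each of 3 groups. In the control group, which the labels call white space handling, the shaved back was coated with petroleum jelly. In the IMQ + NS group, imiquimod (IMQ) cream, an agonist of Toll-like receptor 7 that induces psoriasis-like lesions, was applied daily and the site was then covered with sodium chloride solution (NS). In the IMQ + BZLF group, the same cream was followed by Banzhilian formula (BZLF), a mixture of traditional Chinese medicinal materials, and its dose in the sequenced samples was not given in the sources used here. Both IMQ groups therefore received the irritant until collection, and whole lesional skin was sequenced, so that fewer cells of a type and less RNA per cell cannot be told apart. The sources do not state that the 4 samples of a group came from separate mice, and p-values measure the spread between these samples only.

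Levels are given as FPKM, the fragments of a gene divided by its transcript length and by the mapped total of the library, which allows levels to be compared between genes. The reads behind nearly all values were recovered from the table, and each sample held 32177453 to 37274068 reads in these genes. The range was 32177453 to 34630123 in control, 35096622 to 37274068 in IMQ + NS and 34669979 to 37173972 in IMQ + BZLF samples. Every control was thus below every IMQ + NS sample. A barrier lipid gene had between 238 and 43664 reads in a sample, which corresponds to a counting error of 0.479% to 6.48%. The coefficient of variation between the 4 samples, 2.69% to 45.8%, includes the counting error. It was closest to it in IMQ + BZLF samples for Cers3 (2.69% against 2.23%), Ugcg (3.16% against 1.96%) and Cyp4f39 (3.62% against 2.40%).

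Keratinocyte markers were detected in every sample, with a summed FPKM of 6 basal markers of 1347 to 1817 in control, 3346 to 5434 in IMQ + NS and 1649 to 2327 in IMQ + BZLF samples. The sum of 9 suprabasal and granular markers, which label the layers where acylceramides are made, overlapped between the groups at 1355 to 3406, 1761 to 3938 and 1259 to 3012, respectively. Its members moved in both directions, with 4 higher and 3 lower in IMQ + NS than in control samples: mean FPKM went from 232 to 1152 for Krt1 and from 28.0 to 113 for Dsc1, and from 598 to 3.63 for Krt77 and from 654 to 307 for Lor. After BZLF 2 of the 9 rose, Krt77 to 34.4 and Flg2 from 1.22 to 4.92 FPKM. The sum of 8 activated keratinocyte markers was 216 to 644 in control, 5803 to 15052 in IMQ + NS and 1260 to 1482 in IMQ + BZLF samples. In IMQ + NS samples its largest members were S100a8 and S100a9, at means of 3010 and 2909 FPKM. After BZLF 7 of the 8 fell, and Krt17, then the largest at 1143 FPKM, did not pass (adjusted p = 0.108 by limma). Hair shaft and inner root sheath markers stood at 9124 to 11570 in IMQ + NS and 11105 to 15982 in IMQ + BZLF samples, whereas control samples were at 22.2, 23.5 and 59.0 with 1791 in control replicate 2, a library that stood apart from the other controls. In the same order of groups, the sums were 1154 to 1617, 537 to 831 and 699 to 977 for sebaceous, 13085 to 18643, 3681 to 4890 and 4286 to 8109 for fibroblast, and 3690 to 8274, 1804 to 2838 and 2455 to 2921 for adipocyte markers. They were 3212 to 8017, 609 to 1435 and 1043 to 1427 for skeletal muscle, 5.83 to 8.88, 22.9 to 61.2 and 3.53 to 6.01 for neutrophil, and 457 to 674, 325 to 471 and 215 to 320 for macrophage markers. Only the neutrophil gene Ly6g was at 0 in some control and IMQ + BZLF samples.

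The question of the first comparison was which barrier lipid genes differ between normal skin and IMQ-induced lesions. Higher in the lesions were Pnpla1 5.21-fold, Cers3 3.82-fold, Abca12 2.76-fold, Sdr9c7 2.55-fold, Ugcg 1.49-fold and Abhd5 1.23-fold. Elovl4, by far the most abundant of the genes, was 1.65-fold lower. A gene passed the test at an adjusted p below 0.05 by limma on log2(FPKM + 0.1), and fold changes are on that scale. With this rule 6 of the 10 genes rose and 1 fell, while 29% of all 15288 tested genes were called higher and 27.1% lower. A fold change over 2 was reached by 4 of those that rose, beside 11.4% of all tested genes called higher and 11% called lower with that limit. The median log2 fold change was 0.45 over the 10 genes and 0.05 over all tested genes, and the groups did not overlap in 7 of the 10. All IMQ + NS samples were above all controls for 6 genes, against 23.7% of all tested genes, and below them for 1, against 25.7%. Without control replicate 2, the library that stood apart, 6 rose and 2 fell, where Aloxe3 was added, and 39.5% and 28.9% of all tested genes were called. The log2 fold changes of Abca12, Sdr9c7 and Elovl4 were then 1.25, 1.1235 and -0.80 in place of 1.47, 1.35 and -0.72.

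The second comparison asked which of these genes differed in lesions treated with BZLF. Sdr9c7 was 2.12-fold, Abca12 1.61-fold and Cyp4f39 1.19-fold lower in IMQ + BZLF than in IMQ + NS samples, and the genes with the largest rises in lesions, Pnpla1 and Cers3, did not pass the test. In total 3 of the 10 genes fell, against 5.17% of all tested genes called lower. At an unadjusted p below 0.05, 6 were lower, and the share of all tested genes under that rule was not computed. By voom on the recovered reads 2 were lower, against 4.54% of the genes tested. Only Sdr9c7 passed when IMQ + BZLF replicate 1, 2 or 4 or IMQ + NS replicate 1 or 2 was left out, which gives a count of 1. With all 8 samples Sdr9c7 was the only member that also exceeded a 2-fold difference, which 2.2% of tested genes did as lower. None of the 10 rose by limma, whereas 1.28% of all tested genes were called higher. In that direction 0 had an unadjusted p below 0.05 and 0 passed by voom, which called 1.62% of the genes tested higher. The median log2 fold change was -0.26 over the 10 genes and -0.02 over all tested genes. All IMQ + BZLF samples were below all IMQ + NS samples for 5 genes, against 10.9% of all tested genes, and above them for 0, against 4.24%. The 5 were the 3 that fell together with Cers3 and Ugcg, which did not pass (adjusted p = 0.0526 and 0.0867).

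The third comparison set IMQ + BZLF samples against control samples. Pnpla1 at 5.54-fold, Cers3 at 2.96-fold, Abca12 at 1.72-fold and Ugcg at 1.23-fold were higher in IMQ + BZLF samples, and Elovl4 was 1.82-fold lower. These 4 higher genes and 1 lower gene stand beside 23.8% of all tested genes called higher and 29.2% called lower. With the fold limit 2 genes, Pnpla1 and Cers3, remained higher beside 9.65% of tested genes, and 10.1% of tested genes were lower. All IMQ + BZLF samples were above all controls for 3 genes, against 19.4% of all tested genes, and below them for 1, against 28.1%. Without control replicate 2, 4 rose and 2 fell, with 35.1% and 31% of all tested genes called. This comparison shares its samples with the other comparisons, so its values are not independent of theirs.

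**Figure D1:**
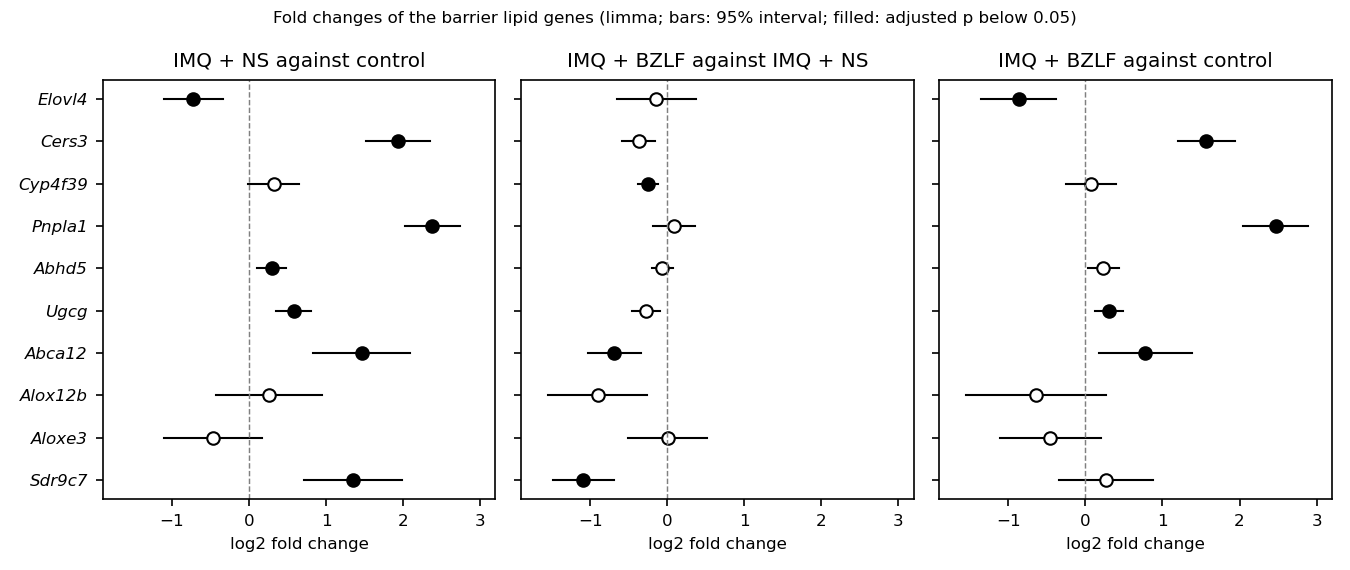
Log2 fold change (x axis) of the 10 barrier lipid genes in the 3 comparisons, from limma on log2(FPKM + 0.1) with 4 samples per group; bars are 95% intervals and filled points passed at an adjusted p below 0.05. Pnpla1 and Cers3 lie to the right of 0 in both comparisons with control, and Sdr9c7, Abca12 and Cyp4f39 are the filled points to the left of 0 in IMQ + BZLF against IMQ + NS.

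Upstream sequences are shown for the genes called more than 2-fold higher than control in both IMQ groups, Pnpla1 and Cers3. They are also shown for the larger of the falls after BZLF that passed, Sdr9c7 and Abca12. RefSeq windows (GRCm38.p6) of 250 bases before and 50 bases from the annotated start were matched by symbol for 9 of the 10 genes. Capitals mark letters that match a searched motif on either strand. The windows are chr17:28858161-28858460 on the plus strand for Pnpla1, chr7:66743254-66743553 on the plus strand for Cers3, chr10:127898285-127898584 on the plus strand for Sdr9c7 and chr1:71414861-71415160 on the minus strand for Abca12.
Pnpla1: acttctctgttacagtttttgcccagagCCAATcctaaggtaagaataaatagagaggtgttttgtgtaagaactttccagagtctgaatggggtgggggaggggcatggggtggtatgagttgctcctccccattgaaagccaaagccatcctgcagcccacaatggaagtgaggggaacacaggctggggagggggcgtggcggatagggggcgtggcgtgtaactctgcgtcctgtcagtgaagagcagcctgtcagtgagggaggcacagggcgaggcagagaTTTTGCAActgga
Cers3: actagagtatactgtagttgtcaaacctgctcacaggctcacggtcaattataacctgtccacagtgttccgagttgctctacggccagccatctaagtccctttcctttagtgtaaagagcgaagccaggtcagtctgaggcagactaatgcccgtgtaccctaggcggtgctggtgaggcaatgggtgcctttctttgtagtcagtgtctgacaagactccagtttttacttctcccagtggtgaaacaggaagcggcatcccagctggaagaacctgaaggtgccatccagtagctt
Sdr9c7: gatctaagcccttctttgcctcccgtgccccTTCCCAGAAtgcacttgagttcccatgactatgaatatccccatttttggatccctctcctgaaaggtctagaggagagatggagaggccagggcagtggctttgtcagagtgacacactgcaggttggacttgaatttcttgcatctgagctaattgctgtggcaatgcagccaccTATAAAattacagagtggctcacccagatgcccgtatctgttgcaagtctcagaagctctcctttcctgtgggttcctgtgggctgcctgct
Abca12: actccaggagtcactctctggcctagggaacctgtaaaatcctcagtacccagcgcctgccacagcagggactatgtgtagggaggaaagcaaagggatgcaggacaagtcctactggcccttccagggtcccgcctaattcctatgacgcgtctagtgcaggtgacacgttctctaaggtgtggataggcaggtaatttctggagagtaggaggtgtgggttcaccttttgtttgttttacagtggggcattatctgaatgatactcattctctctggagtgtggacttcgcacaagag
Pnpla1 held a C/EBP motif (TTGCNNAA), which 10.8% of all 32851 windows hold, and a CCAAT box (CCAAT), which 37.4% hold. The C/EBP match began at base 38 from the start, read on the opposite strand, and the CCAAT box at base -222. Sdr9c7 held a TATA box (TATAAA, 13.6% of windows) from base -42 and a STAT motif (TTCNNNGAA, 8.30% of windows) from base -219. The AP-1 motif TGANTCA (7.81% of windows) and the grainyhead motif AACNNGTT (4.204% of windows) were in 0 of the 9 windows, and a GC box (GGGCGG, 35.7% of windows) was in those of Ugcg, Elovl4, Abhd5 and Alox12b. The windows of Cers3 and Abca12 hold none of these 7 motifs, which says only that these letters are not there. Such matches describe the sequence and do not show binding.

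**Figure D2:**
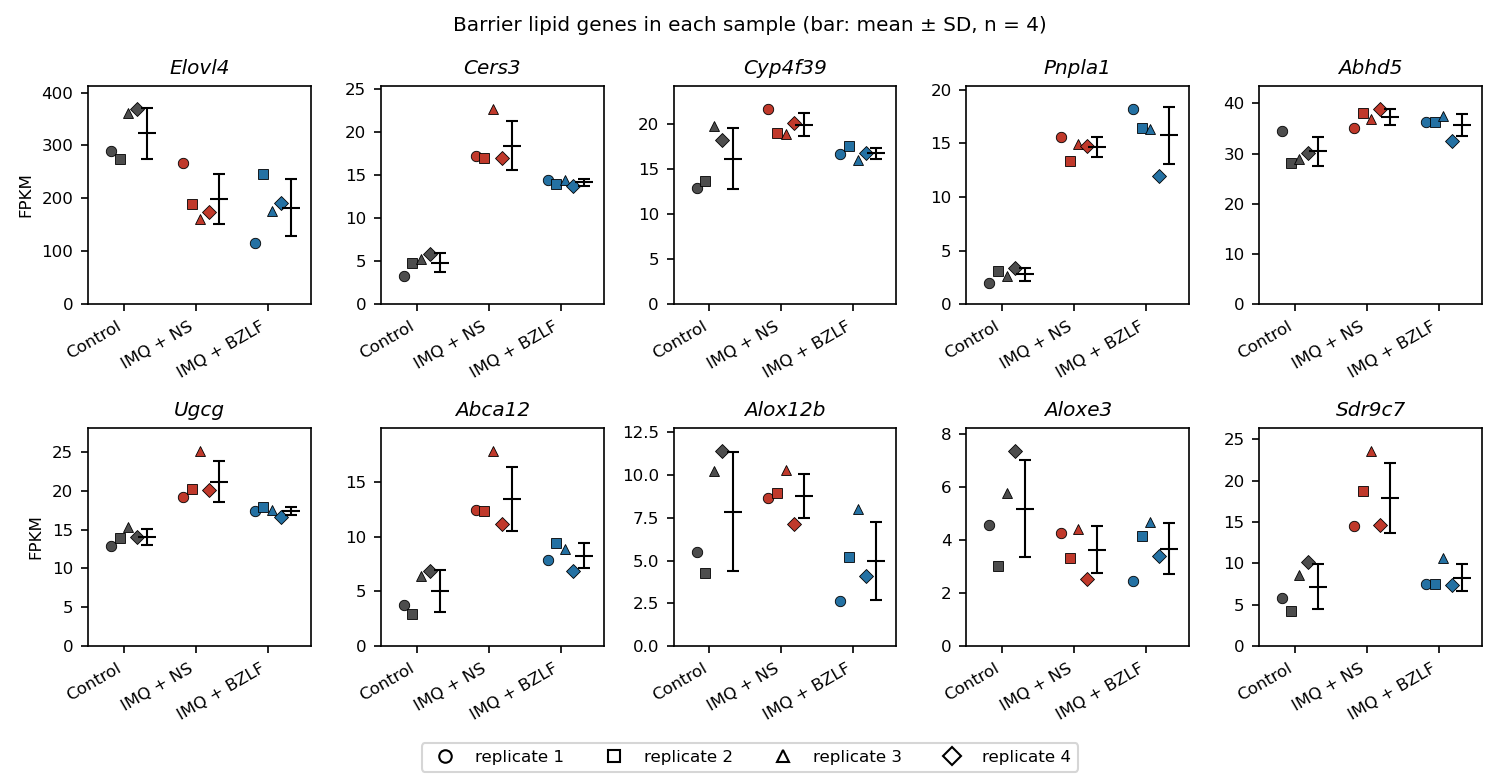
FPKM (y axis, from 0) of each barrier lipid gene in the 12 samples, with 1 marker shape per replicate number and the group mean ± SD (n = 4) beside the points. The IMQ groups lie above all controls for Cers3 and Pnpla1, and the IMQ + BZLF samples lie near the controls for Sdr9c7.

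The first steps build the acyl chain and the ceramide. Elovl4, the elongase that makes ultra-long-chain fatty acids, lies on chromosome 9 at 83778692 to 83806277 on the minus strand (GRCm38, GENCODE M21). It had 289.5, 274, 361 and 368 FPKM in control replicates 1 to 4. In IMQ + NS replicates it was at 267, 190.0, 162 and 174 FPKM, and in IMQ + BZLF replicates at 116, 246, 176 and 192 FPKM. Every control sample was above every sample of both IMQ groups, and the IMQ groups overlapped. The mean fell from 323 ± 48.5 to 198 ± 47.3 FPKM (SD, n = 4) in IMQ + NS samples, a log2 fold change of -0.72 (SE 0.17, adjusted p = 0.00644 by limma). Against control, IMQ + BZLF samples at 182 ± 53.5 FPKM differed by -0.86 (SE 0.21, adjusted p = 0.00941). Between the IMQ groups the log2 difference of -0.14 had a 95% interval of -0.66 to 0.37. Sebaceous and fibroblast marker sums were also lower in both IMQ groups than in control. Of the 9 sebaceous markers, 6 were lower and 2, Elovl3 and Soat1, were higher in each IMQ group than in control. Of the 6 fibroblast markers, 5 were lower in each and Pdgfra did not pass. The part of these cells in the Elovl4 values was not tested.

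Cyp4f39 (chromosome 17, 32452723 to 32493320, plus strand), a cytochrome P450 that hydroxylates the end of these fatty acids, had 12.9, 13.6, 19.8 and 18.2 FPKM in control replicates 1 to 4. It was at 21.6, 19.0, 18.9 and 20.04 FPKM in IMQ + NS and at 16.7, 17.5, 16.0 and 16.7 FPKM in IMQ + BZLF replicates. Control replicate 3 lay within the range of the lesions, and all IMQ + BZLF samples were below all IMQ + NS samples. The log2 fold change of IMQ + NS against control was 0.32, with a 95% interval of -0.01 to 0.65 (adjusted p = 0.0858), and without control replicate 3 it was 0.43 (adjusted p = 0.0306). After BZLF it fell by 0.25 (SE 0.06, adjusted p = 0.0424 by limma). This call held in 5 of the 20 alternative analyses without a fold limit, in which the adjusted p ranged from 0.0419 to 0.377. The call was lost without any 1 of the 8 samples (-0.27 to -0.21, adjusted p 0.0581 to 0.108). The difference of IMQ + BZLF from control was 0.08 on the log2 scale (adjusted p = 0.673).

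Cers3, the ceramide synthase that takes ultra-long-chain acyl groups, lies on chromosome 7 at 66743504 to 66823691 on the plus strand. Its level was 3.30, 4.82, 5.29 and 5.85 FPKM in control replicates. The IMQ + NS replicates had 17.2, 17.0, 22.7 and 17.0 FPKM and the IMQ + BZLF replicates 14.5, 14.0, 14.4 and 13.7 FPKM. The 3 groups did not overlap, with the IMQ + BZLF samples between the others and close together. The mean rose from 4.82 ± 1.09 to 18.4 ± 2.81 FPKM in IMQ + NS samples (log2 fold change 1.93, SE 0.18, adjusted p = 5.77e-05 by limma) and was 14.2 ± 0.382 FPKM in IMQ + BZLF samples (1.57 against control, SE 0.16, adjusted p = 0.000169). The log2 difference between the IMQ groups was -0.37 with a 95% interval of -0.58 to -0.15 and an adjusted p of 0.0526. Without IMQ + NS replicate 3, the highest sample, the difference was -0.27 with an adjusted p of 0.0404. Both comparisons with control kept their call in all 20 alternatives.

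The next step esterifies linoleic acid to the ceramide. Pnpla1, the transacylase of this step (chromosome 17, 28858411 to 28890309, plus strand; upstream window shown above), was at 2.001, 3.10, 2.63 and 3.38 FPKM in control replicates. It was at 15.6, 13.3, 14.9 and 14.8 FPKM in IMQ + NS and at 18.2, 16.4, 16.4 and 11.98 FPKM in IMQ + BZLF replicates. All 8 samples that received IMQ were above all controls, and the IMQ groups overlapped. The mean of 2.78 ± 0.603 FPKM rose to 14.7 ± 0.952 FPKM in IMQ + NS samples (log2 fold change 2.38, SE 0.16, adjusted p = 8.61e-06 by limma) and stood at 15.7 ± 2.64 FPKM in IMQ + BZLF samples (2.47 against control, SE 0.19, adjusted p = 2.84e-05). The difference between the IMQ groups was 0.09 with a 95% interval of -0.18 to 0.36 (adjusted p = 0.706). The interval includes a difference of 0 and also one of up to 0.36, so equal levels were not shown. Hair markers were high in the same 8 samples, and their part in the Pnpla1 and Cers3 values was not tested.

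Abhd5, a co-activator of this transacylase and of the adipose triglyceride lipase, lies on chromosome 9 at 122351608 to 122381524 on the plus strand. It was at 34.5, 28.2, 29.0 and 30.1 FPKM in control replicates. In IMQ + NS it was at 35.1, 38.1, 36.9 and 38.8 FPKM and in IMQ + BZLF at 36.3, 36.4, 37.5 and 32.6 FPKM. Control replicate 1 came within 1 FPKM of the lowest IMQ + NS sample, and IMQ + BZLF samples overlapped with both groups. The rise of 0.29 on the log2 scale in IMQ + NS samples (SE 0.08, adjusted p = 0.0141 by limma) was lost in 4 of 20 alternatives, among them samples rescaled to equal sums (adjusted p = 0.112) and the recovered reads (adjusted p = 0.122). Against control, IMQ + BZLF samples differed by 0.23 (adjusted p = 0.0503), which passed without control replicate 1 (0.29, adjusted p = 0.0226) and without IMQ + BZLF replicate 4 (0.28, adjusted p = 0.0433), and the IMQ groups differed by -0.06 (95% interval -0.19 to 0.07).

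Glucosylation and export follow. Ugcg, the glucosylceramide synthase (chromosome 4, 59189257 to 59222833, plus strand), had 12.9, 13.9, 15.4 and 14.1 FPKM in control replicates. It had 19.3, 20.2, 25.1 and 20.1 FPKM in IMQ + NS and 17.4, 17.9, 17.6 and 16.6 FPKM in IMQ + BZLF replicates. As for Cers3, the groups did not overlap and IMQ + BZLF samples lay in between. Ugcg rose by 0.58 on the log2 scale in IMQ + NS samples (SE 0.10, adjusted p = 0.0015 by limma). In IMQ + BZLF samples it was 0.30 above control (SE 0.08, adjusted p = 0.0113), a call kept in 16 of 20 alternatives and lost, among others, with samples rescaled to equal sums (adjusted p = 0.0674), on the recovered reads (adjusted p = 0.0651) and with the replicate block (adjusted p = 0.0516). The difference between the IMQ groups was -0.28 with a 95% interval of -0.46 to -0.09 and did not pass (adjusted p = 0.0867).

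Abca12, the transporter that loads glucosylceramides into lamellar granules, lies on chromosome 1 at 71242276 to 71414910 on the minus strand. Control replicates had 3.79, 2.97, 6.41 and 6.87 FPKM. IMQ + NS replicates had 12.4, 12.4, 17.8 and 11.2 FPKM, and IMQ + BZLF replicates 7.86, 9.42, 8.85 and 6.82 FPKM. All IMQ + NS samples were above the other groups, and the lowest IMQ + BZLF sample was just below the highest control. The mean rose from 5.01 ± 1.92 to 13.4 ± 2.95 FPKM in IMQ + NS samples (log2 fold change 1.47, SE 0.28, adjusted p = 0.00217 by limma). It then fell to 8.24 ± 1.15 FPKM after BZLF (-0.69, SE 0.15, adjusted p = 0.0315), a call kept in 10 of 20 alternatives with a log2 difference between -0.77 and -0.54. It was lost without any 1 of the 4 IMQ + BZLF samples or IMQ + NS replicate 1 or 2 (-0.75 to -0.60, adjusted p 0.0504 to 0.0657). The fit of all 12 samples also lost this call (adjusted p = 0.177 by limma). So did the fits without a filter, with median ratio scaling and without a variance trend (adjusted p = 0.0682, 0.0518 and 0.0551). Against control, IMQ + BZLF samples remained 0.78 higher (SE 0.26, adjusted p = 0.0342). This call was kept in 11 of 20 alternatives, in which the adjusted p ranged from 0.0172 to 0.0956. It was lost, among others, without control replicate 1 or IMQ + BZLF replicate 1, 2 or 3 (0.68 to 0.80, adjusted p 0.0662 to 0.0918). The replicate block (adjusted p = 0.0584), samples rescaled to equal sums and quantile normalization also lost it.

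The last group oxidises the linoleic acid part. Alox12b and Aloxe3 encode the lipoxygenases of successive steps and are neighbours on the plus strand of chromosome 11, at 69156989 to 69169792 and 69125896 to 69149115, with 7873 bases between them. Alox12b was at 5.51, 4.27, 10.2 and 11.4 FPKM in control, 8.68, 8.92, 10.3 and 7.14 FPKM in IMQ + NS and 2.61, 5.19, 8.0004 and 4.10 FPKM in IMQ + BZLF replicates. The control samples spanned the IMQ + NS range, and 3 of the 4 IMQ + BZLF samples were below every IMQ + NS sample. Alox12b did not pass in any of the comparisons, with log2 differences of 0.26 (95% interval -0.43 to 0.95) for IMQ + NS against control and -0.90 (-1.55 to -0.26, adjusted p = 0.101 by limma) for IMQ + BZLF against IMQ + NS. Without IMQ + BZLF replicate 3, its highest sample, the latter was -1.16 with an adjusted p of 0.0301. IMQ + BZLF against control gave -0.64 (95% interval -1.55 to 0.26).

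Aloxe3 was at 4.57, 3.02, 5.75 and 7.33 FPKM in control replicates. It was at 4.27, 3.32, 4.39 and 2.52 FPKM in IMQ + NS and at 2.45, 4.14, 4.66 and 3.38 FPKM in IMQ + BZLF replicates. The 3 groups overlapped, with the highest values, 7.33 and 5.75 FPKM, in control samples. The log2 difference from control was -0.46 in IMQ + NS (95% interval -1.098 to 0.17, adjusted p = 0.187) and -0.45 in IMQ + BZLF samples (-1.11 to 0.20, adjusted p = 0.209). The IMQ groups differed by 0.01 with an interval of -0.50 to 0.52. Without control replicate 2, which stood apart and was its lowest control, Aloxe3 was lower in both IMQ + NS (-0.69, adjusted p = 0.0252 by limma) and IMQ + BZLF samples (-0.68, adjusted p = 0.0307).

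Sdr9c7, the dehydrogenase that acts on the product of both lipoxygenases, lies on chromosome 10 at 127898518 to 127911761 on the plus strand (upstream window shown above). It had 5.82, 4.18, 8.62 and 10.1 FPKM in control replicates. In IMQ + NS replicates it reached 14.5, 18.7, 23.5 and 14.6 FPKM, and in IMQ + BZLF replicates 7.55, 7.46, 10.7 and 7.44 FPKM. Every IMQ + NS sample exceeded every other sample, whereas control and IMQ + BZLF samples overlapped. The mean rose from 7.18 ± 2.68 to 17.9 ± 4.25 FPKM (log2 fold change 1.35, SE 0.28, adjusted p = 0.00347 by limma) and fell to 8.29 ± 1.61 FPKM after BZLF (-1.09, SE 0.18, adjusted p = 0.00966). Both calls were kept in all 20 alternatives. Against control, the log2 difference of IMQ + BZLF samples was 0.27 with a 95% interval of -0.34 to 0.87 (adjusted p = 0.424). Basal keratinocyte, activated keratinocyte and neutrophil marker sums were also higher in IMQ + NS than in both other groups. Of the 6 basal markers, 4 were higher and 1 lower in IMQ + NS than in control samples. After BZLF, 4 of the 6 fell and 0 rose. The part of these cells in the Sdr9c7 values was not tested.

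Within a group, Alox12b and Aloxe3 followed the sample order of the suprabasal markers at their low end. The sample with the lowest suprabasal marker sum was also the lowest for Alox12b and for Aloxe3 in all 3 groups: control replicate 2 with a sum of 1355, IMQ + NS replicate 4 with 1761 and IMQ + BZLF replicate 1 with 1259 FPKM. Elovl4 and Abca12 showed this in 2 groups, Cers3, Sdr9c7 and Abhd5 in 1 and Ugcg, Pnpla1 and Cyp4f39 in 0. The match was noticed after the values were seen, and the part of these cells in the lipoxygenase values was not tested. Control replicate 4 was the highest control for 7 of the 10 genes and control replicate 2 the lowest for 6, while IMQ + NS replicate 3 was the highest of its group for 6. IMQ + NS replicate 3 also had the highest sums of activated keratinocyte and neutrophil markers, at 15052 and 61.2 FPKM.

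**Figure D3:**
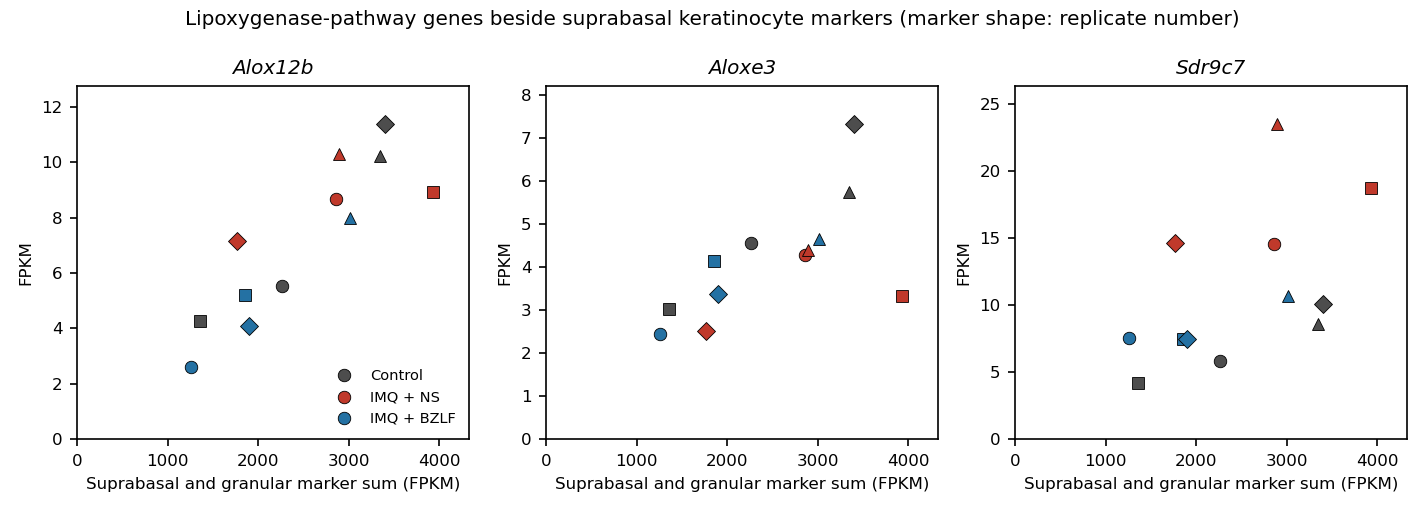
FPKM of Alox12b, Aloxe3 and Sdr9c7 (y axes, from 0) against the summed FPKM of 9 suprabasal and granular markers (x axis) in the 12 samples, coloured by group, with 1 marker shape per replicate number. The lowest Alox12b and Aloxe3 values of each group lie at its lowest marker sum, and the 4 IMQ + NS samples are above all others for Sdr9c7.

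Ratios between genes of adjoining steps within a sample do not depend on how the samples were scaled. The 5 ratios were tested in the 3 comparisons by an exact permutation test (two-sided, 4 against 4 samples), whose smallest p is 0.0286, or 0.039 after adjustment over the 15 tests, and 11 of the 15 reached it. Without IMQ + NS replicate 3 none of the 15 passed, with a smallest adjusted p of 0.0536 by the exact permutation test, since fewer tests then reached the smallest p. A shift in a ratio shows an unequal change and not which gene changed. Sdr9c7/Aloxe3 was 1.27, 1.39, 1.498 and 1.38 in control samples, 3.41, 5.64, 5.36 and 5.81 in IMQ + NS and 3.08, 1.80, 2.29 and 2.20 in IMQ + BZLF replicates. The groups did not overlap, and the ratio was 3.52-fold higher in IMQ + NS than in control, 2.14-fold lower in IMQ + BZLF than in IMQ + NS and 1.65-fold higher in IMQ + BZLF than in control samples (exact permutation test, adjusted p = 0.039 for each).

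Aloxe3/Alox12b moved the opposite way. It was 0.828, 0.706, 0.564 and 0.644 in control samples, 0.492, 0.372, 0.427 and 0.353 in IMQ + NS and 0.939, 0.797, 0.583 and 0.826 in IMQ + BZLF replicates. All IMQ + NS samples were below all others, with a ratio 1.65-fold lower than in control and 1.88-fold lower than in IMQ + BZLF samples (exact permutation test, adjusted p = 0.039 for each). Control and IMQ + BZLF samples overlapped (exact permutation p = 0.343). Neither lipoxygenase passed the test alone in these comparisons, whereas their ratio differed. The thresholds are unlike, since single genes were adjusted over 15288 tests and ratios over 15. For IMQ + BZLF against IMQ + NS, Alox12b had an unadjusted p of 0.0115 by limma. The unadjusted p of the ratio was 0.0286 by the exact permutation test.

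Cers3/Elovl4 was 0.0114 to 0.0176 in control, 0.0644 to 0.14 in IMQ + NS and 0.057 to 0.125 in IMQ + BZLF samples. It was 6.30-fold higher in IMQ + NS and 5.38-fold higher in IMQ + BZLF than in control samples (exact permutation test, adjusted p = 0.039 for each), and the IMQ groups overlapped (exact permutation p = 0.514). Pnpla1/Abhd5 was 4.25-fold and 4.72-fold higher, respectively, than in control samples, with the same adjusted p, and the IMQ groups overlapped (exact permutation p = 0.257). Abca12/Ugcg was 1.85-fold higher in IMQ + NS than in control and 1.33-fold lower in IMQ + BZLF than in IMQ + NS samples (exact permutation test, adjusted p = 0.039 for each), and for IMQ + BZLF against control the exact permutation p was 0.143.

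**Figure D4:**
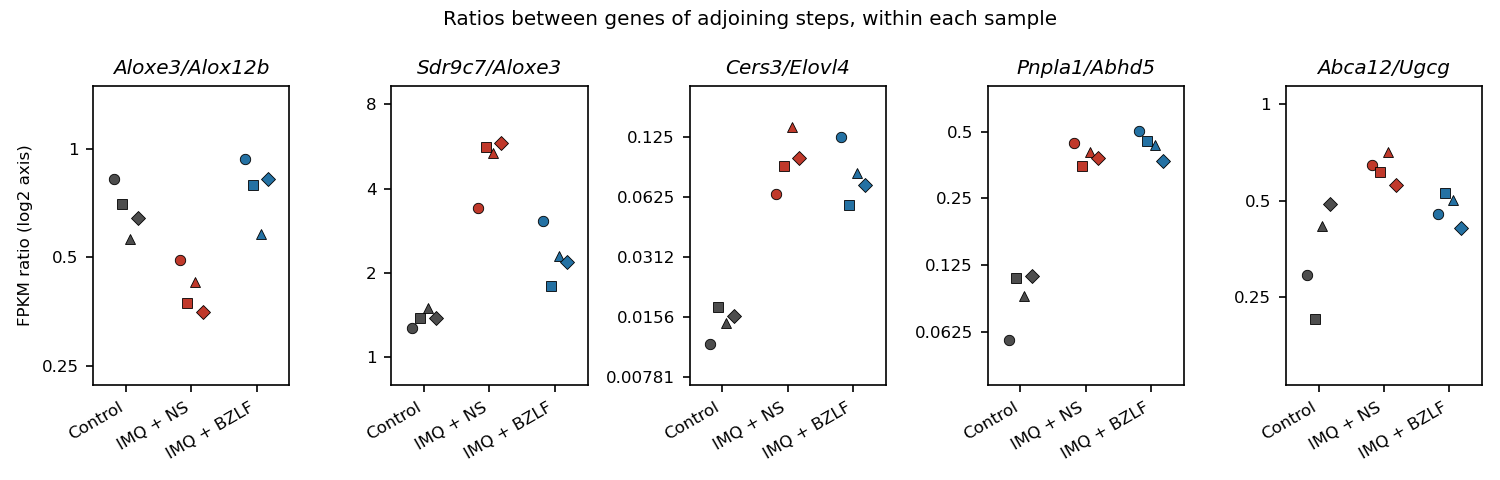
Ratio of FPKM values within each of the 12 samples (y axis, log2 scale) for 5 pairs of genes of adjoining steps, with 1 marker shape per replicate number. The IMQ + NS samples are the lowest for Aloxe3/Alox12b and the highest for Sdr9c7/Aloxe3, and both IMQ groups are above control for Cers3/Elovl4 and Pnpla1/Abhd5.

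Among the 10 genes, Elovl4 had the highest FPKM in every group, with shares of their summed mean level of 77.6% in control samples, 56.1% in lesions with NS and 59.4% in lesions with BZLF, and Abhd5 came next in each. Their ranges did not overlap with the next gene in any group. In control samples Cyp4f39 and Ugcg followed and could not be separated, and from Alox12b through Sdr9c7, Aloxe3, Abca12 and Cers3 to Pnpla1 each gene overlapped with the next. Pnpla1 was the lowest gene at 2.78 FPKM in control, the 7th at 14.7 FPKM in IMQ + NS and the 5th at 15.7 FPKM in IMQ + BZLF samples. Aloxe3 was the lowest in both IMQ groups, at 3.63 and 3.66 FPKM, and in IMQ + NS samples it and Alox12b were each separate from the genes above, while from Ugcg down to Abca12 each gene overlapped with the next. In IMQ + BZLF samples Cers3 at 14.2 FPKM and Sdr9c7 at 8.29 FPKM did not overlap, which divided 6 higher genes from 4 lower ones, with overlap between the other neighbours from Ugcg down.

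By profile over the 12 samples, compared as the root mean square (RMS) difference of centred log2(FPKM + 0.1) values, Ugcg and Abhd5 were each other's nearest gene of the set (0.187), as were Abca12 and Sdr9c7 (0.270) and Cers3 and Pnpla1 (0.407). Aloxe3 was nearest to Elovl4 (0.344), Alox12b to Aloxe3 (0.446) and Cyp4f39 to Ugcg (0.202), and the pair farthest apart was Elovl4 and Pnpla1 (1.56). Among the 12647 genes whose mean reached 1 FPKM, the most similar outside the set were Tfb2m for Abhd5 (0.0569), Atp6v1b2 for Ugcg (0.0747), Rdh1 for Elovl4 (0.101), Cebpb for Cyp4f39 (0.103) and Pkp1 for Cers3 (0.132). They were Lpin3 for Pnpla1 (0.135), Them5 for Sdr9c7 (0.142), Eps8l1 for Aloxe3 (0.158), Chit1 for Alox12b (0.164) and Nipal4 for Abca12 (0.183). Them5 had mean levels of 22.5, 57.1 and 25.3 FPKM in control, IMQ + NS and IMQ + BZLF samples, and Lpin3 6.13, 33.4 and 38.7 FPKM. These are descriptions of samples that share their groups.

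The other genes of the pathway were taken from 6 lists with 76 genes, of which 75 were in the table and 74 were tested. In IMQ + NS against control samples 25 rose and 33 fell, in IMQ + BZLF against IMQ + NS samples 1 rose and 11 fell, and in IMQ + BZLF against control samples 23 rose and 30 fell. Over all tested genes the shares called higher and lower were 29% and 27.1%, 1.28% and 5.17%, and 23.8% and 29.2% in these comparisons, and they are the background for the counts of each list. Among 16 ceramide synthesis genes, 8 rose and 7 fell in IMQ + NS samples, with a median log2 fold change of 0.049 beside 0.054 over all tested genes. Cers5, a ceramide synthase for shorter acyl chains, fell by 2.49 and Fa2h, the fatty acid 2-hydroxylase, by 0.98, while Sptssb, a small subunit of serine palmitoyltransferase, rose by 5.32 and Degs2, which makes phytoceramides, by 3.78 (adjusted p between 2.96e-06 and 0.0387 by limma). Sptssb was below 0.1 FPKM in 3 controls and at 0.947 FPKM in control replicate 2, so its fold change depends on the added constant. Degs2 averaged 0.335 FPKM in control samples, so the constant also affects its fold change. After BZLF, Degs2 fell by 1.101, Degs1, the main dihydroceramide desaturase, by 0.55 and Sptlc1, a core subunit of serine palmitoyltransferase, by 0.41 on the log2 scale (adjusted p = 0.0325, 0.0275 and 0.0165).

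Of 16 tested genes of fatty acid elongation and activation, 3 rose and 8 fell in IMQ + NS samples, with a median of -0.43. Acacb, an acetyl-CoA carboxylase, fell by 1.72 and Fasn, the fatty acid synthase, by 1.38. Elovl3, an elongase that is also one of the sebaceous markers, rose by 0.94 and the fatty acid transporter Slc27a4 by 0.51. Fasn rose by 0.61 after BZLF (adjusted p = 0.0238), from 90.0 ± 15.1 to 137 ± 17.7 FPKM, and remained below the 241 ± 79.2 FPKM of control. Adipocyte marker sums were lower in both IMQ groups than in control, and their part in the Fasn and Acacb values was not tested. Elovl1, a further elongase, fell by 0.26 after BZLF (adjusted p = 0.0475), and voom on the recovered reads called 0 genes of this list lower. Of 11 ceramide processing genes, 1 rose (the acid sphingomyelinase Smpd1, 0.42) and 4 fell, among them the galactosyltransferase Ugt8a by 1.45 and the ceramidase Acer2 by 0.80. Ugt8a averaged 0.495 FPKM in control and 0.113 FPKM in IMQ + NS samples, so its fold change depends on the added constant.

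Among 8 other lipoxygenase and epoxide hydrolase genes, 3 rose and 4 fell in IMQ + NS samples. Alox8 rose by 5.52 and the epoxide hydrolase Ephx3 by 0.79, while Alox12e fell by 1.87 and Alox5 by 1.20. Alox8 was at 0.199, 0.234 and 0.299 FPKM in 3 controls, at 2.28 FPKM in control replicate 2, whose hair markers were high, and at 20.2 to 29.2 FPKM in IMQ + NS samples. After BZLF none of the 8 was called in either direction by limma, with 1 higher and 1 lower at an unadjusted p below 0.05 and 0 called in either direction by voom on the recovered reads.

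Of 13 lipases and other barrier genes, 6 rose and 6 fell in IMQ + NS samples. The cornification protease Casp14 rose by 3.55 and the envelope cross-linking enzyme Tgm1 by 2.42, while Pnpla3 fell by 1.496 and Pnpla2, the adipose triglyceride lipase, by 1.16. After BZLF, Nipal4, a membrane protein mutated in ichthyosis, fell by 0.55 (adjusted p = 0.00413), the cholesterol sulfotransferase Sult2b1 by 0.41 (adjusted p = 0.00394) and Lipn, an epidermal lipase, by 1.57 (adjusted p = 0.0408). Nipal4 had mean levels of 8.68, 21.6 and 14.6 FPKM and Sult2b1 of 13.7, 43.9 and 33.0 FPKM in control, IMQ + NS and IMQ + BZLF samples. Among 10 transcription factors, 4 rose and 4 fell in IMQ + NS samples. Grhl1 rose by 1.57 and Grhl3, both grainyhead-like factors of the epidermis, by 1.42, while the lipid-sensing receptors Nr1h3 and Ppara fell by 1.28 and 1.07. After BZLF, Ppard, Grhl3 and the keratinocyte factor Trp63 fell by 0.56, 0.46 and 0.25 (adjusted p = 0.0059, 0.0373 and 0.0416 by limma).

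**Figure D5:**
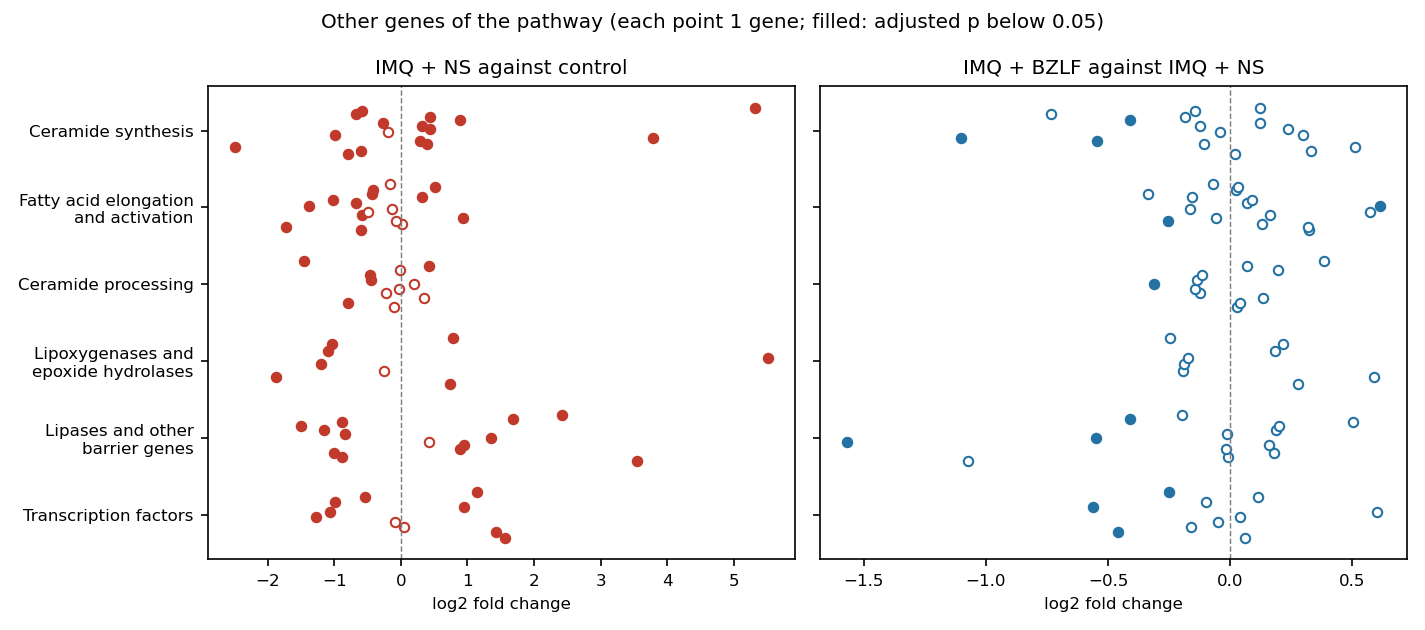
Log2 fold change (x axis; the scales of the panels differ) of the 74 tested genes of 6 pathway lists (y axis), from limma on log2(FPKM + 0.1) with 4 samples per group; filled points passed at an adjusted p below 0.05. In IMQ + NS against control 25 filled points lie to the right and 33 to the left of 0, and in IMQ + BZLF against IMQ + NS 1 lies to the right and 11 to the left.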

How the data were processed

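Whole back skin of BALB/c mice, 12 samples in 3 groups of 4, taken on day 10, was compared. The authors deposited 1 table of FPKM values, with no log scale and no pooling of replicates. The study's methods describe alignment to transcripts with Bowtie2, quantification with eXpress and testing of counts with DESeq2, whereas the submitters' processing notes name fastp, HISAT2, HTSeq, R 3.2.0 and mm10. The sources also differ on the extraction and library kits, so the strand setting and the handling of ribosomal RNA are uncertain. Groups came from the sample titles, and 0 columns were left out.

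Genes were kept where FPKM averaged 0.1 or more across all libraries (15288 of 18505) and tested on log2(FPKM + 0.1) with limma 3.58.1 in R 4.3.3 (moderated variances with a trend), separately for each pair of groups, with Benjamini-Hochberg adjustment over all tested genes. The constant understates changes of genes with low values. Whole reads were recovered for 18474 genes (99.8%, within 0.05 reads of a whole number) from the steps of the FPKM values, and voom on these reads was added as an alternative after the data were seen. Ratios were compared by exact permutation tests. The fit was tested on simulated data. Within each group no library was a copy of another. Alternatives were other constants, filters, scalings, variance models, call limits, a replicate block and leaving out each sample in turn. The 20 alternatives counted for a single gene leave out both fold limits, under which changes below 2-fold cannot pass.

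The genes, the lists of pathway genes and cell markers, and the tests were chosen with earlier results of these data known. Named were the 10 members, every pathway gene that passed in IMQ + BZLF against IMQ + NS, up to 2 of each list with the largest change in each direction in IMQ + NS against control, and the nearest genes by profile, except 1 gene that is not reported here. Python 3.11.15 with pandas 2.3.3, numpy 2.4.6 and matplotlib 3.10.9 was used. Upstream windows came from RefSeq (GRCm38.p6) and gene positions from GENCODE M21 (GRCm38). Protein sequences were not used here.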

Additional observations from a re-analysis of the deposited data

Results flagged for a closer look

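Of the 30 combinations of gene and group, 3 had a sample far from the other 3, by Dixon's test at its 95% critical value, which chance gives in about 1 of 20 groups. Cers3 was at 22.7 FPKM in IMQ + NS replicate 3 against 17.0 to 17.2 FPKM in the others, and Ugcg was at 25.1 FPKM in the same sample against 19.3 to 20.2 FPKM. Without that sample the difference of IMQ + BZLF from IMQ + NS was -0.27 for Cers3 (adjusted p = 0.0404 by limma) and -0.19 for Ugcg (adjusted p = 0.124). Sdr9c7 was at 10.7 FPKM in IMQ + BZLF replicate 3 against 7.44 to 7.55 FPKM in the others, and its call against IMQ + NS was kept without that sample.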

How the results depend on the processing

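Of 660 values of single members under the alternatives, 581 kept their direction and side of the threshold, 58 lost it, 11 gained it and 10 changed sign, and where no value below shows it, the cause was not tested. With a fold limit of 2, genes called higher and lower numbered 1740 and 1678 (1799 and 1700 with an unadjusted p) in IMQ + NS against control, 49 and 336 (88 and 403) in IMQ + BZLF against IMQ + NS, and 1475 and 1542 (1545 and 1565) in IMQ + BZLF against control, as fewer genes pass a stricter limit. Under both fold limits, members lower numbered 0, 1 and 0 in the 3 comparisons in that order, and members higher against control after BZLF numbered 2. For IMQ + BZLF against IMQ + NS, the 195 genes called higher became 119 without a filter, 295 with median ratio scaling, 311 with quantile normalization and 95 in a fit of all 12 samples, and the 3 members called lower became 1 with median ratio scaling, in the fit of all 12 samples and without a variance trend. Against control after BZLF, the 4 members called higher became 2 with equal sums, quantile normalization and the replicate block.

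Leaving out 1 sample at a time gave 59 to 337 genes higher and 426 to 738 lower between the IMQ groups, where the lowest counts came without IMQ + BZLF replicate 2 and without IMQ + NS replicate 3. It gave 1 to 3 members lower there, 1 to 2 members lower in each comparison with control (2 without control replicate 2, which adds Aloxe3), and 0 to 10 of the 15 ratio tests past the threshold (0 without IMQ + NS replicate 3). Without control replicate 2, 6036 genes were called higher in IMQ + NS and 5366 after BZLF against control, instead of 4427 and 3640. The sign changed only for differences that had not passed: Aloxe3 between the IMQ groups (-0.06, -0.12, -0.02 and -0.15 without IMQ + BZLF replicates 2 and 3 and IMQ + NS replicates 2 and 4, in a range up to 0.181), Elovl4 there (0.0591 and 0.012 without replicate 1 of IMQ + BZLF and IMQ + NS, in a range from -0.301) and Cyp4f39 in IMQ + BZLF against control (-0.0268 with equal sums, -0.0163 with quantile normalization, -0.0286 with voom and -0.0235 without control replicate 1, in a range up to 0.182).

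Equal sums, quantile normalization and voom moved the median of all genes in IMQ + NS against control by -0.13, -0.12 and -0.13 on the log2 scale, and voom moved it by -0.11 in IMQ + BZLF against control. With equal sums, genes higher and lower were 3161 and 4999 instead of 4427 and 4142 in IMQ + NS against control and 2771 and 5179 instead of 3640 and 4458 in IMQ + BZLF against control. Between the IMQ groups they were 295 and 579 with median ratio scaling and 311 and 659 with quantile normalization instead of 195 and 791. Whether replicate numbers pair the samples was not settled. Of 12 pairs with the same number, 6 had a correlation of their deviations over 0.1, with a range from -0.15 to 0.26. The correlations were 0.18, 0.17 and 0.18 for replicate 3 and 0.11, 0.26 and 0.16 for replicate 4 in the 3 comparisons. Pairs with different numbers were not compared. With the number as a replicate block, genes higher and lower were 3898 and 3703, 179 and 752, and 2976 and 3757 in the 3 comparisons.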
